A study of Mus musculus with 35 samples.

Results

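The genes described here encode the collagen and laminin chains, the Frem and Fras proteins, and the basement membrane linkers nidogen, perlecan and agrin, and they were measured by RNA-seq in the striatum of 35 mice with 1 library per mouse. They were picked by gene symbol alone, which gave 63 genes of 32863: 44 collagen chains, 11 laminin chains, Frem1, Frem2, Frem3 and Fras1, and the linker genes Nid1, Nid2, Hspg2 (perlecan) and Agrn (agrin). The study deleted Hdac2, a class I histone deacetylase, in the medium-spiny neurons (MSNs) of the striatum, in mice with and without the HttQ111 allele, which carries a lengthened CAG tract in mouse huntingtin and models Huntington's disease. The question asked of these genes was whether the rest of the set follows Frem3, whose rise after Hdac2 loss was already known when the set was chosen. For that reason Frem3 is described without a p-value of the Hdac2 effect, and its own place past the threshold is not a result. Counts of members past the threshold include it unless stated, and the main ones are also given without it.

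The 4 groups held 8 Htt+/+ Hdac2 WT mice, 7 HttQ111/+ Hdac2 WT mice, 9 Htt+/+ Hdac2 KO mice and 11 HttQ111/+ Hdac2 KO mice. KO mice were homozygous for a floxed Hdac2 allele and carried D9-Cre, a Cre transgene on a genomic fragment of Ppp1r1b, the gene for DARPP-32, which drives recombination in MSNs, so other striatal cells kept an intact Hdac2. Hdac2 WT mice were labelled Hdac2+/+ and Cre-, and the sample table of the study records them with floxed Hdac2 alleles but no Cre, 1 floxed copy in a pair of Htt+/+ mice and both copies in the rest. No WT mouse carried Cre, so an effect of the Cre transgene and an effect of the Hdac2 deletion cannot be told apart. The HttQ111 and D9-Cre lines were on C57BL/6J, written C57B6/J in the labels, and the floxed line came from a mixed C57BL/6/129SeEv stock crossed to C57BL/6J. Mice were 21.71 to 23 weeks old, 22 were males and 13 females, and the expanded allele carried 110 to 144 CAGs.

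Collagens are trimers of alpha chains that form fibrils, networks or filaments in the extracellular matrix, and laminins are cross-shaped trimers of an alpha, a beta and a gamma chain. Laminin and collagen IV sheets, held together by nidogens, perlecan and agrin, make the basement membrane around brain vessels and beneath the pia. Fras1, Frem1 and Frem2 form a complex that holds epithelial basement membranes to the tissue below them, and Frem3 is a related protein. In brain much of this matrix is known to come from vascular cells, fibroblasts and astrocytes, and some collagens are made by neurons, so in bulk tissue fewer cells of a type and less RNA per cell cannot be told apart.

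Library totals were 50970712 to 77867348 counts (median 57322618), and the 63 genes took 0.0668% to 0.0929% of them. Counts of Hdac2 over its whole gene were only slightly lower in KO mice, 94.4 ± 3.0 CPM (CPM are counts scaled by library size, SD, n = 9) against 102 ± 3.5 (n = 8) in Htt+/+ mice and 95.2 ± 3.5 (n = 11) against 105 ± 5.0 (n = 7) in HttQ111/+ mice. Such counts include RNA from exons outside the deleted part and from cells without Cre, and therefore check the genotype labels poorly. The 10 MSN markers summed to 6078 to 9516 CPM and each was detected in every library. In 8 markers of cortical projection neurons 3 libraries stood apart: HttQ111/+ Hdac2 WT replicate 7 at 474 CPM summed, and Htt+/+ Hdac2 KO replicates 6 and 2 at 213 and 176 CPM, against 38.5 to 123 CPM in the others. Results that these libraries touch are given with and without them.

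A stretch of 250 bases before the transcription start is shown for the Frem genes, for Col6a2 and its neighbour Col6a1, and for Col11a1 and Nid1. These are a choice from among the responding and the non-responding members and do not stand for either as a whole. The sequences are from RefSeq (GRCm38.p6), which held 46 of the 63 genes in the table used here, and run 5′ to 3′ on the gene's own strand. Capitals mark GGGCGG or its reverse complement CCGCCC, the GC box, searched on both strands.
Frem3 (chr8:80610789-80611038, + strand): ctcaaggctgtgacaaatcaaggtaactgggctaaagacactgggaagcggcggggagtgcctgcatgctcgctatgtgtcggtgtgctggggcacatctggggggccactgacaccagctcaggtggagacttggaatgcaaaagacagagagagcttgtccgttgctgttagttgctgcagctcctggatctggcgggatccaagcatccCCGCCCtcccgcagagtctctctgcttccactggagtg
Frem2 (chr3:53657356-53657605, - strand): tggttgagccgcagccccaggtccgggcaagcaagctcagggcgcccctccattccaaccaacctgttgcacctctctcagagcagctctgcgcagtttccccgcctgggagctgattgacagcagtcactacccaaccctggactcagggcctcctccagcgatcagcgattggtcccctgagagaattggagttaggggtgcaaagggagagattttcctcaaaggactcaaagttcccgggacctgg
Frem1 (chr4:83052167-83052416, - strand): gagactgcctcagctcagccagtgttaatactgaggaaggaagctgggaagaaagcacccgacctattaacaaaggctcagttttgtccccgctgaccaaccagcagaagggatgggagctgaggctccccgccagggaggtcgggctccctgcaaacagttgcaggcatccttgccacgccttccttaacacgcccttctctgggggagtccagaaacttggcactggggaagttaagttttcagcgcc
Col6a2 (chr10:76623405-76623654, - strand): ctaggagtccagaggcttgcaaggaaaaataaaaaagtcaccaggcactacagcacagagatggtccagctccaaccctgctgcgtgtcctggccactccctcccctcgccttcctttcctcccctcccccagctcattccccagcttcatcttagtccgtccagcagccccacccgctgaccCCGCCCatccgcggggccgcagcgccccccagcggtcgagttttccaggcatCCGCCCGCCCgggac
Col6a1 (chr10:76726045-76726294, - strand): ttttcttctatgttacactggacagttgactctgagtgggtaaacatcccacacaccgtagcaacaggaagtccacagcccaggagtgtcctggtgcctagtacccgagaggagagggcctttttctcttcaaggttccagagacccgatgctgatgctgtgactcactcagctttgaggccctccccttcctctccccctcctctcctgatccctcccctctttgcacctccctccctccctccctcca
Col11a1 (chr3:114030290-114030539, + strand): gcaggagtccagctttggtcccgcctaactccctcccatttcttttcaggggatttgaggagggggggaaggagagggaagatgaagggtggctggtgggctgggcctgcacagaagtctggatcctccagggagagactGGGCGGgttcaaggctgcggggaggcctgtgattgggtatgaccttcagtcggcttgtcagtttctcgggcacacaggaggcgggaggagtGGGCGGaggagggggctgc
Nid1 (chr13:13437352-13437601, + strand): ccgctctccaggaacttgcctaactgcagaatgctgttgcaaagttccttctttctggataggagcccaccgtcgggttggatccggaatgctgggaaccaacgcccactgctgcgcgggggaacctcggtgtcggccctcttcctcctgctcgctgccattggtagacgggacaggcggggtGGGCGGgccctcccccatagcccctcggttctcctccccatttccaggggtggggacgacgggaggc
A GC box was present in 27 of the 46 members (58.7%) and in 32.7% of all 32851 promoter stretches of the same length. The members' stretches, 1 per gene, were also richer in G and C (median 59.6% against 52.4%) and in CG dinucleotides (median 10 against 6). The part of this base composition in the GC box share was not tested. Among the sequences shown, Col6a2 held 3 matches, Col11a1 2, Frem3 and Nid1 1 each, and Frem2, Frem1 and Col6a1 none. Matches did not mark the responding members beyond those shown. Col15a1 and Col19a1, past the threshold in both Htt backgrounds, had 0, and Agrn, which did not pass, had 12. The TATA box letters TATAAA were in 5 of 46 members (10.9%; 12.4% of all stretches) and in none of those shown. The left and right sites CAGCACC and GGACAGC of the RE1 element, which the repressor REST binds, were in 3 and 1 of 46 members (5.73% and 5.28% of all stretches) and likewise in none of those shown. The 6 members with a sequence among those past the threshold in both Htt backgrounds had 7 to 16 CG dinucleotides (median 9), and the other 40 had 0 to 35 (median 10). The range of the responding members lay within that of the others.

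After loss of Hdac2 no other matrix gene changed by as much as Frem3. In Htt+/+ mice 9 matrix genes rose and 2 fell among 62 tested (17.7%, adjusted p under 0.05 in edgeR's quasi-likelihood test), and 17.8% of all 17126 genes tested passed the same threshold (9.06% higher and 8.79% lower). In HttQ111/+ mice 8 rose and 3 fell (17.7%), where 16.5% of 17169 genes passed (7.68% higher and 8.86% lower). Without Frem3 the counts were 8 higher and 2 lower of 61 in Htt+/+ mice and 7 higher and 3 lower of 61 in HttQ111/+ mice. By direction, 14.5% of the matrix genes were higher and 3.23% lower in Htt+/+ mice, and 12.9% higher and 4.84% lower in HttQ111/+ mice. Leaving out Frem3, 13.1% were higher and 3.28% lower in Htt+/+ mice, and 11.5% higher and 4.92% lower in HttQ111/+ mice. With or without Frem3, the shares past the threshold lay near those of all genes in sum but not in each direction. With extraction date as the covariate instead, and Frem3 counted, 5 were higher and 0 lower in Htt+/+ mice (8.06%, against 4.8% of all genes) and 6 higher and 0 lower in HttQ111/+ mice (9.68%, against 1.93%). Averaged over both backgrounds, Hdac2 KO gave 12 higher and 4 lower (25.8%), and 25.0% of 17346 genes passed (12.9% higher and 12.1% lower). Leaving out Frem3, the average gave 11 higher and 4 lower of 61 (24.6%). An unadjusted p under 0.05 was found for 20 members in Htt+/+ mice (29.0% of all genes had one), 19 in HttQ111/+ mice (28.1%) and 17 in the average (35.0%). Col10a1, a cartilage collagen with too few counts, was the only member not tested.

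The fitted changes were small for most members. The median log2 fold change (KO minus WT) over the 62 genes was -0.06 in Htt+/+ and 0.03 in HttQ111/+ mice, beside 0.00 for all genes in both, and apart from Frem3 the values ran from -0.62 to 0.91 and from -1.04 to 0.97. The fit carries surrogate variables, estimated factors that take up unwanted variation between libraries. In Htt+/+ mice the sign of the members' median depended on them, and in HttQ111/+ mice only its size did. Without them the median was 0.13 in Htt+/+ and 0.07 in HttQ111/+ mice (all genes 0.01 and 0.00), with 14 higher and 7 higher and no lower calls. With extraction date as the covariate it was 0.24 and 0.18 (all genes 0.00 and -0.01). The comparisons in the 2 Htt backgrounds use different mice. In both backgrounds 7 members passed, 63.6% of each list of 11, and without Frem3 6 did, 60% of each list of 10. Of all genes past the threshold in Htt+/+ and in HttQ111/+ mice 63.9% and 68.7% passed in both. Frem3 aside, those past it in both included Col11a1, Col15a1, Col6a2 and Nid1, which were higher, and Col19a1, which was lower. Apart from Frem3, which was chosen for its rise, libraries of KO and WT did not overlap for Col6a2, Col11a1 and Col15a1 in Htt+/+ mice. In HttQ111/+ mice they did not overlap for Col6a2. With Frem3 counted, 4 and 2 members were higher without overlap, where 2.48% and 0.874% of all genes were. No member had all KO libraries below all WT libraries in either background, where 2.21% and 0.582% of all genes did. Over both backgrounds Frem3 and Col6a2 separated all 20 KO from all 15 WT libraries (0.38% of all genes higher, 0.242% lower).

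**Figure D1:**
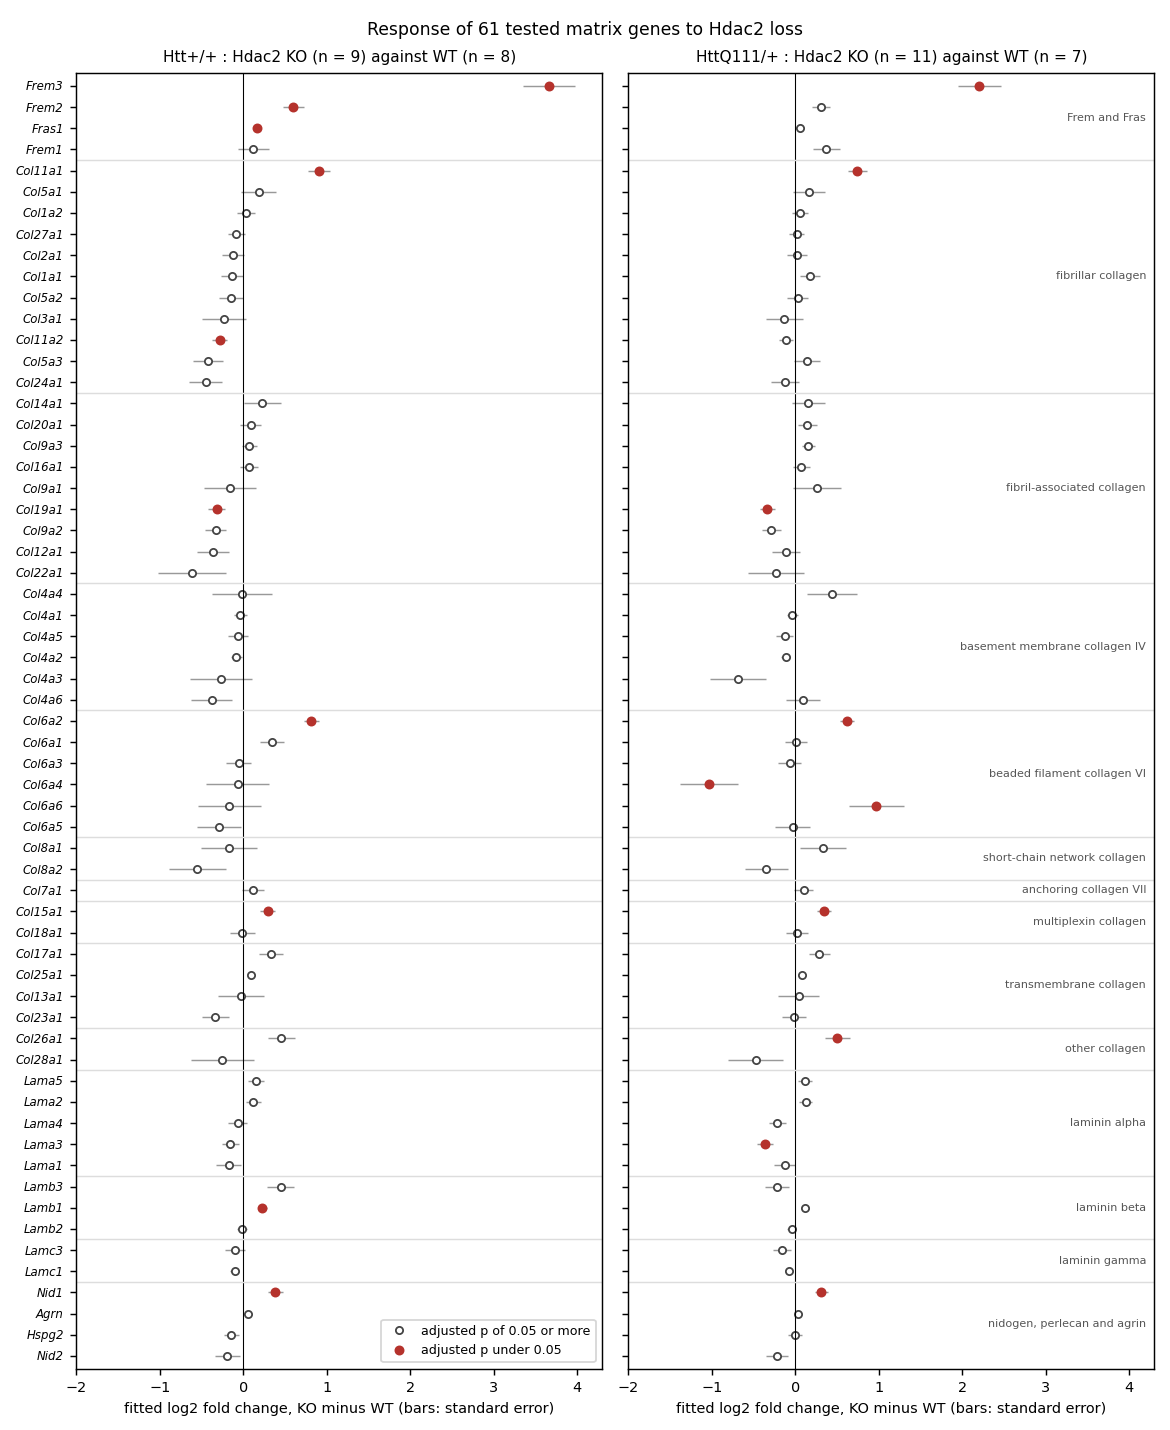
Fitted log2 fold change (x axis, KO minus WT, bars are standard errors) of 61 tested matrix genes (y axis, grouped by role) in Htt+/+ mice on the left and HttQ111/+ mice on the right, with filled red points for adjusted p under 0.05. Frem3, which was chosen for its rise, is filled as well and stands at 3.66 and 2.20. The other members lie between -1.04 and 0.97.

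Frem3, on chromosome 8 (80611080 to 80695356, GRCm38, + strand), was close to absent in WT striatum. It had 0.155, 0.308 and 0.502 CPM (lowest, median and highest library) in Htt+/+ Hdac2 WT and 0.159, 0.631 and 1.27 CPM in HttQ111/+ Hdac2 WT mice. In KO mice it had 2.66, 3.63 and 5.39 CPM in Htt+/+ and 2.40, 3.28 and 4.32 CPM in HttQ111/+ mice. Every KO library lay above every WT library. The fitted log2 fold changes were 3.66 ± 0.31 (SE) and 2.20 ± 0.26, or 12.7-fold and 4.60-fold. In the libraries that stood apart in cortical markers Frem3 had 4.04 and 2.86 CPM (Htt+/+ KO replicates 6 and 2), within the range of their group, and 0.159 CPM (HttQ111/+ WT replicate 7), the lowest of its group. Frem3 also kept its direction within the extraction dates that held both Hdac2 genotypes, with 3.63 CPM in 1 Htt+/+ KO library against 0.261 to 0.486 in 3 WT libraries, and 3.74 CPM in 1 HttQ111/+ KO library against 0.159 to 0.821 in 2 WT libraries. Each of these dates rests on 1 KO library, and 18 of 62 members (29.0%) lay above the WT libraries on both dates, where 12% of all genes did, and 4 (6.45%) lay below, where 12.1% did.

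The relatives of Frem3 moved far less. Frem2, on chromosome 3 (53513939 to 53657355, - strand), had 8.33, 11.1 and 16.2 CPM in Htt+/+ WT and 11.5, 16.3 and 18.2 CPM in Htt+/+ KO libraries, with ranges that overlapped. It rose by 0.60 ± 0.13 on the log2 scale in Htt+/+ mice (edgeR adjusted p = 8.57e-04). In HttQ111/+ mice Frem2 had 9.52, 12.9 and 16.6 CPM in WT and 11.9, 15.3 and 20.6 CPM in KO libraries, a difference of 0.31 ± 0.11 with an adjusted p of 0.0544 in the same test, and it passed in 6 of 13 alternatives of processing (adjusted p from 0.00778 to 0.734). Within extraction dates Frem2 was above the WT libraries in the HttQ111/+ KO library (20.6 against 13.0 to 15.02 CPM) and below them in the Htt+/+ KO library (11.5 against 11.6 to 16.2 CPM). Frem1, a secreted member of the complex, had low levels, 1.10 ± 0.38 CPM (SD, n = 8) in Htt+/+ WT and 1.33 ± 0.32 (n = 9) in Htt+/+ KO mice, 1.27 ± 0.47 (n = 7) in HttQ111/+ WT and 1.55 ± 0.31 (n = 11) in HttQ111/+ KO mice. Its fitted change was 0.12 (95% interval -0.24 to 0.49) and 0.37 (0.05 to 0.69), with edgeR adjusted p = 0.730 and 0.128.

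Fras1, the founding member of the complex, was the most abundant of the 4 per length, at 4.84 CPM per kb of exon over all libraries, against 1.09 for Frem2, 0.338 for Frem3 and 0.0953 for Frem1. Counts include introns, which raises long genes on this scale, and Fras1 spans 410774 bases, against 84277 to 154248 for the Frem genes. The fitted rise of Fras1 of 0.16 ± 0.05 in Htt+/+ mice passed the threshold (edgeR adjusted p = 0.0177), but mean levels were 89.3 ± 9.6 CPM in WT (n = 8) and 87.5 ± 9.8 in KO (n = 9), and the fitted change was -0.03 without surrogate variables. In HttQ111/+ mice the Fras1 change was 0.06 ± 0.04 with an adjusted p of 0.407. The direction of Fras1 in Htt+/+ mice therefore depended on the covariates of the fit.

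**Figure D2:**
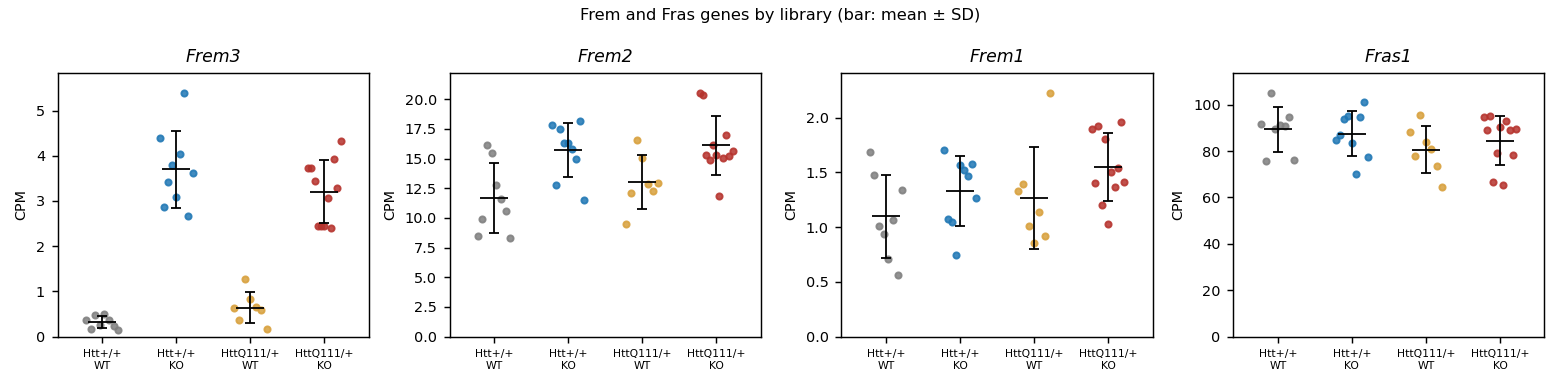
CPM (y axis, from 0) of Frem3, Frem2, Frem1 and Fras1 in each library of the 4 groups (x axis), with bars for mean ± SD. Frem3 in KO libraries, from 2.40 to 5.39 CPM, lies above all WT libraries, at most 1.27 CPM, while the groups overlap for Frem2, Frem1 and Fras1.

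Of the 6 collagen VI chains, which form the beaded microfilaments of the pericellular matrix, Col6a2 rose in both Htt backgrounds. Col6a2 is on chromosome 10 (76595762 to 76623325, - strand) beside Col6a1 (76708792 to 76726168, same strand), and the products of both join with Col6a3 in 1 trimer. Col6a2 had 11.2, 14.9 and 19.2 CPM in Htt+/+ WT and 27.1, 27.9 and 30.2 CPM in Htt+/+ KO libraries. In HttQ111/+ mice it had 13.8, 17.8 and 19.7 CPM in WT and 24.0, 27.8 and 32.0 CPM in KO libraries. KO and WT libraries did not overlap in either background. The rise was 0.81 ± 0.09 in Htt+/+ (1.76-fold, edgeR adjusted p = 1.52e-07) and 0.62 ± 0.08 in HttQ111/+ mice (1.54-fold, 3.32e-06). Col6a2 was also above the WT libraries in both extraction dates that held KO and WT mice, at 30.2 against 14.0 to 19.2 CPM and 24.0 against 13.8 to 17.8 CPM.

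The partner chains of Col6a2 did not pass the threshold. Col6a1 had 33.2, 69.3 and 113 CPM in Htt+/+ WT and 76.3, 88.5 and 94.0 CPM in Htt+/+ KO libraries, with a fitted change of 0.35 (95% interval 0.07 to 0.62; edgeR adjusted p = 0.0926), and 0.01 (-0.25 to 0.26; 0.986) in HttQ111/+ mice. Col6a3 changed by -0.06 (-0.35 to 0.23) and -0.07 (-0.33 to 0.19). Col6a1 varied more between WT libraries than between KO libraries, with SDs of 23.2 and 20.02 CPM in the WT groups and 5.69 and 10.1 CPM in the KO groups. Of the chains that can take the place of Col6a3, Col6a4 fell by 1.04 and Col6a6 rose by 0.97 on the log2 scale in HttQ111/+ mice alone (edgeR adjusted p = 0.0375 and 0.0413). Col6a4 ran from 1.85 to 19.8 CPM between libraries of HttQ111/+ KO mice, and Col6a6 did not exceed 0.660 CPM in any library. Both calls were lost when the 3 libraries high in cortical markers were left out (adjusted p = 0.0711 and 0.0578) and when surrogate variables were left out.

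**Figure D3:**
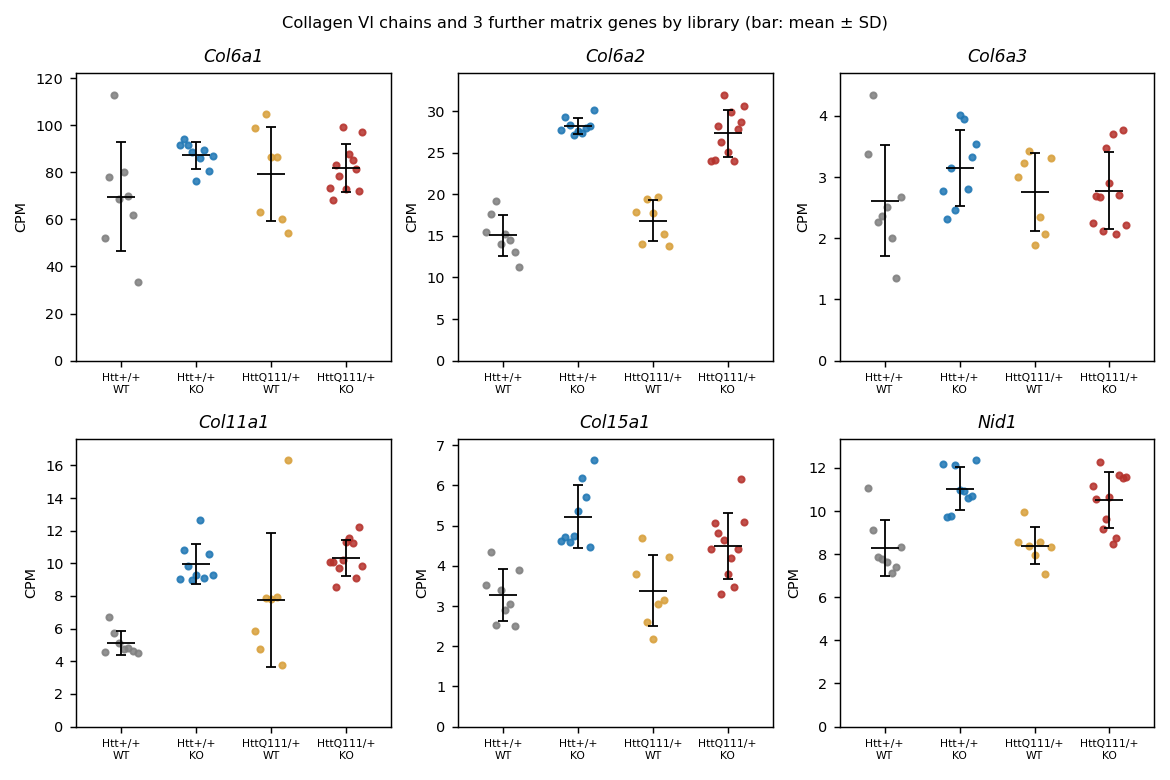
CPM (y axis, from 0) of the collagen VI chains Col6a1, Col6a2 and Col6a3, and of Col11a1, Col15a1 and Nid1, in each library of the 4 groups (x axis), with bars for mean ± SD. Col6a2 separates KO from WT libraries, while Col6a1 and Col6a3 overlap, and 1 HttQ111/+ WT library stands at 16.3 CPM for Col11a1.

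Among the 11 fibrillar collagens, which assemble into banded fibrils, only Col11a1 rose. Col11a1, a minor chain of cartilage fibrils, had 4.5, 4.81 and 6.71 CPM in Htt+/+ WT and 8.95, 9.31 and 12.6 CPM in Htt+/+ KO libraries, without overlap. In HttQ111/+ mice it had 3.74, 7.82 and 16.3 CPM in WT and 8.57, 10.1 and 12.2 CPM in KO libraries. The WT value of 16.3 CPM came from replicate 7, the library highest in cortical markers, and the next highest WT library had 7.96 CPM. The rise was 0.91 ± 0.13 in Htt+/+ (1.88-fold, edgeR adjusted p = 5.91e-06) and 0.74 ± 0.12 in HttQ111/+ mice (1.67-fold, 3.05e-05), and both calls remained without replicate 7. In HttQ111/+ mice the change was not past the threshold without surrogate variables. Col11a1 followed the cortical markers across libraries after removal of group means (r = 0.76, rho = 0.60, r = 0.57 without the 2 farthest libraries) and ran against the MSN markers (r = -0.76, rho = -0.68); the part of cortical tissue in the Col11a1 difference was not tested beyond leaving out those libraries.

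Col11a2, another collagen XI chain, fell by 0.28 ± 0.09 in Htt+/+ mice (edgeR adjusted p = 0.0240) although its mean was 33.8 ± 4.2 CPM in WT (n = 8) and 33.0 ± 3.2 in KO (n = 9), and the call was lost without surrogate variables and without replicate 7 of HttQ111/+ WT (adjusted p = 0.0930). The chains of collagen I, the main fibril of connective tissue, did not pass. Col1a1 changed by -0.14 (95% interval -0.40 to 0.12) and 0.17 (-0.06 to 0.40), and Col1a2 by 0.04 (-0.18 to 0.25) and 0.06 (-0.13 to 0.24). Both were nevertheless among the 18 of 62 members above the WT libraries on both shared extraction dates. Col1a1 was at 3.85 against 1.68 to 1.80 CPM in Htt+/+ and 2.73 against 1.77 to 2.13 CPM in HttQ111/+ mice. Col1a2 was at 4.69 against 2.93 to 4.13 and 4.47 against 2.68 to 2.92 CPM. Of the other fibrillar chains Col24a1 had the lowest value in Htt+/+ mice (-0.45) and none passed.

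Of the 9 fibril-associated collagens, Col19a1 fell in both backgrounds. Col19a1, which is made by some neurons, had 8.26, 9.13 and 11.1 CPM in Htt+/+ WT and 7.24, 8.27 and 10.6 CPM in Htt+/+ KO libraries, and 8.10, 9.93 and 12.1 against 6.08, 8.48 and 11.01 CPM in HttQ111/+ mice. The ranges overlapped widely, and the falls were 0.32 ± 0.10 and 0.34 ± 0.09 on the log2 scale after fitting (edgeR adjusted p = 0.0302 and 0.00997). Neither was past the threshold without surrogate variables. Without the 3 libraries high in cortical markers the Col19a1 call was lost in Htt+/+ mice, where no member was then lower. In HttQ111/+ mice it was kept. Of the collagen IX chains, which coat cartilage fibrils, Col9a2 was lower only in the average over both backgrounds (-0.31 ± 0.10, adjusted p = 0.0164), while Col9a1 and Col9a3 were not past it (0.05 ± 0.23 and 0.12 ± 0.07).

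None of the 6 collagen IV chains passed the threshold. Col4a1 and Col4a2, the main chains of vascular basement membranes, lie head to head on chromosome 8 with overlapping 5′ ends (11198423 to 11312826, - strand, and 11312805 to 11449287, + strand), so a read at the shared end can enter both. Col4a1 had 21.8 ± 2.0 CPM in Htt+/+ WT (n = 8) and 24.1 ± 4.8 in Htt+/+ KO mice (n = 9), with fitted changes of -0.03 (95% interval -0.18 to 0.11) and -0.04 (-0.17 to 0.09). Col4a2 changed by -0.08 (-0.21 to 0.05) and -0.12 (-0.231 to -0.004), with edgeR adjusted p = 0.458 and 0.181. In the Htt+/+ KO library that shared an extraction date with WT libraries, Col4a1 was at 33.1 against 19.5 to 24.0 CPM. Col4a2 was there at 32.7 against 22.6 to 26.4 CPM. In the HttQ111/+ KO library of the other shared date both lay within the WT values. Within the fit with surrogate variables alone, the intervals of both chains leave out a change the size of that in Col6a2. Col4a5 changed by -0.06 ± 0.12 and -0.13 ± 0.10, and Col4a3 and Col4a4 had at most 0.491 and 0.626 CPM in any library, with changes of -0.27 ± 0.37 and -0.01 ± 0.36 in Htt+/+ mice, too imprecise to show a change of that size.

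Of the 11 laminin chains, 2 were higher in Htt+/+ mice, and 1 was higher and 1 lower in HttQ111/+ mice. That is 18.2% in each background, near the 17.8% and 16.5% of all genes that passed. Lama3, an alpha chain of epithelial laminins, fell by 0.37 ± 0.09 in HttQ111/+ mice (adjusted p = 0.00522), with 7.92 ± 0.95 CPM in WT (n = 7) and 7.22 ± 1.9 in KO (n = 11), and in Htt+/+ mice changed by -0.16 ± 0.10. With extraction date as the covariate instead the Lama3 change was 0.24. Lamb3 changed by 0.45 ± 0.16 in Htt+/+ and -0.22 ± 0.14 in HttQ111/+ mice, neither past the threshold.

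The chains of the common laminins of brain vessels moved little. Lamb1 rose by 0.23 ± 0.05 in Htt+/+ mice (47.5 ± 4.6 CPM in WT, n = 8, and 51.2 ± 7.1 in KO, n = 9; edgeR adjusted p = 0.00324), and in HttQ111/+ mice the change was 0.12 ± 0.05 (adjusted p = 0.106). The Htt+/+ value was -0.00069 with extraction date as the covariate instead. Its partners did not pass: Lama2 changed by 0.12 ± 0.09 and 0.12 ± 0.08, and Lamc1 by -0.11 ± 0.05 and -0.08 ± 0.04. Lama4 and Lama5, the alpha chains of endothelial laminins, changed by -0.07 ± 0.12 and -0.22 ± 0.11 and by 0.15 ± 0.09 and 0.11 ± 0.08.

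Nid1 rose and its relative Nid2 did not pass. Nid1, which bridges laminin and collagen IV, lies on chromosome 13 (13437602 to 13512275, + strand) and had 7.10, 7.82 and 11.1 CPM in Htt+/+ WT and 9.75, 10.9 and 12.3 CPM in Htt+/+ KO libraries. In HttQ111/+ mice it had 7.06, 8.37 and 9.95 CPM in WT and 8.47, 10.6 and 12.3 CPM in KO libraries. The rises were 0.39 ± 0.08 (1.31-fold, edgeR adjusted p = 0.00142) and 0.31 ± 0.08 (1.24-fold, 0.00403), although the ranges of WT and KO libraries overlapped. Nid2 changed by -0.19 (95% interval -0.48 to 0.10) and -0.22 (-0.49 to 0.04). Nid1 was above the WT libraries in both shared extraction dates, at 12.3 against 7.10 to 7.86 and 11.1 against 7.95 to 8.31 CPM. It was also among the 28 of 62 members associated with mural cell markers across libraries. The part of this in its rise was not tested. Agrn, the synapse-organizing proteoglycan, and Hspg2 changed by at most 0.15 in size and did not pass.

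Among the other collagens, Col15a1, a basement membrane collagen of the multiplexin type, rose by 0.29 ± 0.09 and 0.34 ± 0.08 (edgeR adjusted p = 0.0251 and 0.00324). It had 2.51 to 4.35 CPM in Htt+/+ WT and 4.46 to 6.62 CPM in Htt+/+ KO libraries, and 2.18 to 4.68 against 3.29 to 6.16 CPM in HttQ111/+ mice. Its change in Htt+/+ mice was larger without surrogate variables (0.67) and with extraction date in their place (0.92), and it lost the call without the 3 libraries high in cortical markers (adjusted p = 0.0960). Col15a1 was among the members that followed mural cell markers across libraries. Col26a1 rose by 0.50 ± 0.15 in HttQ111/+ mice (3.6 ± 0.61 CPM in WT, n = 7, and 5.50 ± 1.6 in KO, n = 11; adjusted p = 0.0170), and in Htt+/+ mice its change of 0.45 ± 0.16 had an adjusted p of 0.0506. The transmembrane collagens Col17a1, of hemidesmosomes, and Col25a1, of neurons, were higher only in the average over both backgrounds, by 0.31 ± 0.10 and 0.09 ± 0.03 (adjusted p = 0.0279 and 0.0334).

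The HttQ111 allele did not move the set past the threshold. No member had an adjusted p under 0.05 between HttQ111/+ and Htt+/+ mice with intact Hdac2 (0.403% of all genes did), with Hdac2 deleted (0.00584%), or in the average over both Hdac2 genotypes (1.27%). In edgeR's test 8 members had an unadjusted p under 0.05 in each of these (10.9%, 7.52% and 12.3% of all genes), and DESeq2 called 1, 0 and 1 members. In mice with intact Hdac2 the lowest adjusted p was that of Frem3 (1.13 ± 0.33 higher in HttQ111/+, 0.137). With Hdac2 deleted, 43 of 62 members had fitted changes above 0 and 19 below, where 49.3% of all genes were above. All 11 fibrillar collagens were above 0, and 2 of 6 collagen VI chains. The members' median was 0.04, but -0.05 without surrogate variables, so its sign depended on the fit. For HttQ111 with Hdac2 deleted the study reported extracellular matrix terms among the most raised pathways, from genes chosen on unadjusted p. A shift of the whole set was not tested. No member separated HttQ111/+ from Htt+/+ libraries with intact Hdac2 (0.0759% of all genes were higher without overlap, 0.0642% lower), and in the average test 0.432% of all genes were higher and 0.836% lower. The comparisons of HttQ111 with intact Hdac2 and of Hdac2 in each background share the WT libraries.

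The effect of Hdac2 loss was not shown to differ between Htt backgrounds for any member. In the interaction (effect in HttQ111/+ minus effect in Htt+/+ mice) no member passed (0.00577% of all genes), 6 had an unadjusted p under 0.05 in edgeR's test (5.63% of all genes), and DESeq2 called 0. Frem3 had the lowest p, with a difference of -1.47 ± 0.37 on the log2 scale (p = 4.07e-04, adjusted p = 0.549), next to Lamb3 with -0.65 ± 0.19 (adjusted p = 0.549). Hence for Frem2, Fras1, Lamb1, Col11a2, Col26a1, Col6a4, Col6a6 and Lama3, which passed in 1 background alone, a difference between backgrounds was not shown.

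Per kilobase of exon the most abundant members over all 35 libraries were Col6a1 (18.2 CPM per kb), Agrn (18.2), Lamc1 (6.19), Lamb1 (5.11), Fras1 (4.84) and Col11a2 (4.81), and Col10a1 was lowest (0.0127). By role, Lama2 led the laminin alpha chains (1.46), Nid1 stood at 1.40, Col4a2 led collagen IV (3.84) and Col9a3 the fibril-associated collagens (2.71). Counts over whole genes include introns, which raises long genes on this scale. Col6a2 stood at 2.72, so its level was well below that of Col6a1 on this scale in a trimer of the same chains.

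Across libraries, with the mean of each group removed, some members followed the markers of cells that build vessels and meninges. Of 62 members, 28 were associated with the level of 10 mural cell markers (22 positive, 6 negative), 20 with endothelial, 18 with astrocyte, 17 with fibroblast, 12 with microglia and 0 with oligodendrocyte markers (both Pearson and Spearman permutation p past 0.05 after Benjamini-Hochberg adjustment over 558 relations). Taking r and rho of at least 0.5 in size as a plainer measure, 29.0% of members and 12.4% of all genes passed it with mural markers, 27.4% and 12.1% with endothelial, 16.1% and 8.69% with astrocyte, 14.5% and 4.23% with fibroblast, and 11.3% and 9.71% with microglia markers. Col23a1 (r = 0.80, rho = 0.76) and Col15a1 (r = 0.78, rho = 0.82) were highest with mural markers, and Lama1 (0.76, 0.75) and Col3a1 (0.73, 0.77) with fibroblast markers, each with r of 0.69 or more without the 2 farthest libraries. Col25a1 (r = -0.71, rho = -0.76) and Lamb1 (-0.59, -0.69) ran against mural markers. Frem3 and Col6a2 were associated with none of the 9 lists (r from -0.33 to 0.18 and from -0.38 to 0.22). These relations are between levels in the same libraries, and share tissue composition and depth.

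Marker levels of these cells overlapped between groups. Summed mural markers had medians of 255, 254, 287 and 288 CPM in Htt+/+ WT, HttQ111/+ WT, Htt+/+ KO and HttQ111/+ KO mice, with overlapping ranges, and endothelial markers 285, 283, 326 and 300 CPM. Of 10 fibroblast markers tested none passed the threshold in either background (medians -0.28 and 0.06). Of 10 endothelial and 10 mural markers none passed in either background, although 1 of the mural markers was higher in the average. Their median fitted changes were -0.05 and -0.06 for endothelial and -0.03 and -0.05 for mural markers, although the summed medians were higher in KO mice. Summed fibroblast markers had medians of 38.3 CPM in Htt+/+ WT and 42.4 CPM in Htt+/+ KO mice. The fit takes up variation between libraries in its surrogate variables, so these tests do not show equal levels of these cells. Osr1 and Foxc2, which define meningeal fibroblasts, were at 0 in some libraries of the set. With the fibroblast marker level as a further covariate, 9 and 12 matrix genes passed in Htt+/+ and HttQ111/+ mice, against 11 and 11. Col5a1, Col12a1 and Col11a1 followed the cortical markers (r = 0.87, 0.92 and 0.76). In HttQ111/+ WT replicate 7 Col5a1 was at 9.52, Col12a1 at 10.9 and Col24a1 at 11.2 CPM, where the medians of that group were 1.20, 2.40 and 0.857 CPM. Col8a1, Col8a2, Col6a5 and Col5a2 followed choroid plexus markers (r = 0.648, 0.627, 0.535 and 0.459), and of the 10 choroid markers 4 were at 0 in some libraries.

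**Figure D4:**
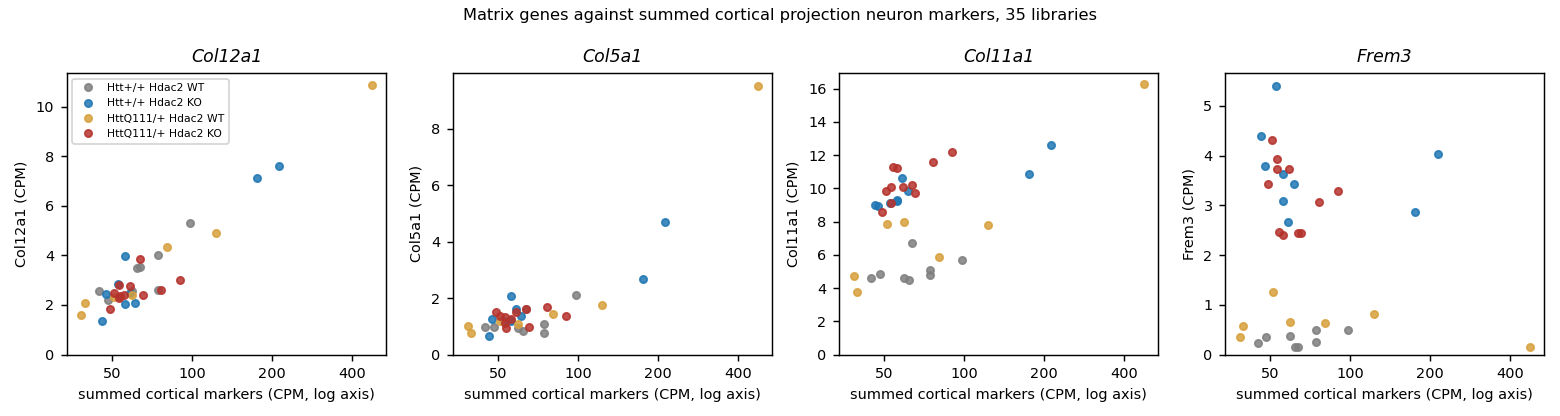
CPM (y axes, from 0) of Col12a1, Col5a1, Col11a1 and Frem3 against the summed level of 8 cortical projection neuron markers (x axes, log scale) in 35 libraries, with colours for the 4 groups. Col12a1 and Col5a1 rise with the markers, to 10.9 and 9.52 CPM in the library at 474 CPM, and Frem3 does not.

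**Figure D5:**
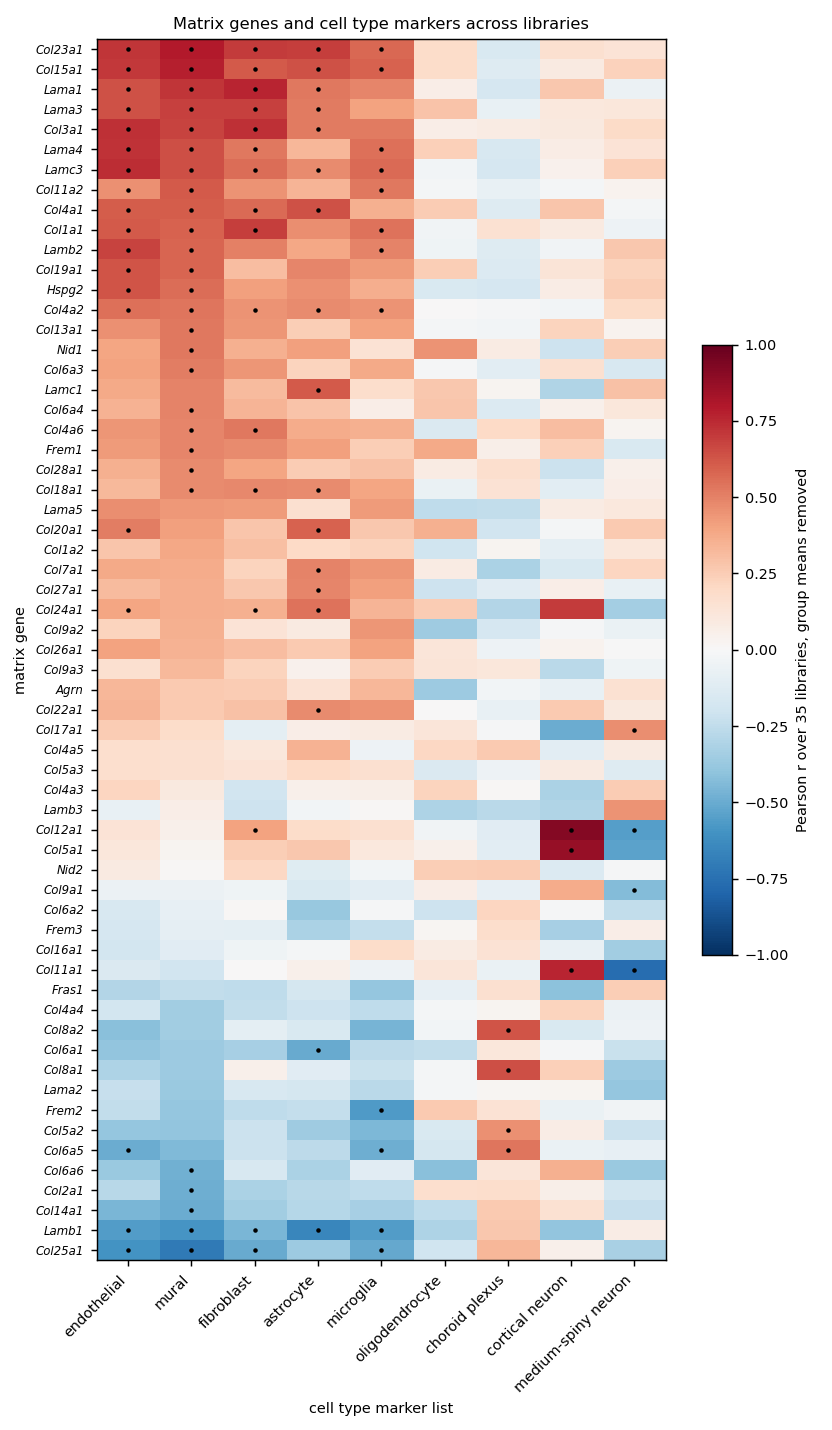
Pearson r over 35 libraries, with group means removed, between 61 tested matrix genes (rows, in the order of r with mural markers) and the mean log2 level of each of 9 marker lists (columns), with dots where both r and rho passed. Mural markers carry the most dots and oligodendrocyte markers none.

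Among receptors and processing enzymes of the matrix single genes changed, in shares to be read against the 17.8% and 16.5% of all genes that passed in Htt+/+ and HttQ111/+ mice. Of 19 receptors tested 2 rose in each background (10.5%): Itga11, the alpha chain of a fibrillar collagen receptor, by 0.66 ± 0.13 and 0.64 ± 0.12, and Itga3, of a laminin receptor, by 0.45 ± 0.07 and 0.36 ± 0.06 (edgeR adjusted p = 6.04e-04 and 2.9e-04 for Itga11). Itga11 had 3.25 ± 0.56 CPM in Htt+/+ WT (n = 8) and 5.82 ± 0.84 in Htt+/+ KO mice (n = 9). Of 4 Fraser complex partners tested, the adaptor Grip2 rose in both backgrounds (0.31 ± 0.07 and 0.23 ± 0.06), and Npnt, a ligand that works with this complex, and Grip1 rose in HttQ111/+ mice (0.41 ± 0.10 and 0.18 ± 0.05). Of 24 collagen processing genes, 4 rose and 1 fell in each background (20.8%). P4ha2, Bmp1 and Plod3, enzymes that hydroxylate or trim collagen chains, rose by 0.28, 0.27 and 0.24 in Htt+/+ mice, and Colgalt1 fell by 0.14, with a median over the list of 0.04 and 0.03.

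Of 15 proteases and inhibitors 2 passed in Htt+/+ (13.3%) and 3 in HttQ111/+ mice. Mmp24 and Mmp17 rose in both backgrounds, by 0.17 and 0.13 in Htt+/+ mice, and Mmp16 fell by 0.20 in HttQ111/+ mice. Of the other matrix genes 5 of 21 passed in Htt+/+ (23.8%) and 6 of 22 in HttQ111/+ mice (27.3%). Thbs1, a matricellular protein, rose by 1.33 ± 0.24 and 1.13 ± 0.20 (0.704 ± 0.16 CPM in Htt+/+ WT, n = 8, and 1.37 ± 0.40 in Htt+/+ KO, n = 9), and Fbn1 and Smoc1 also rose in both. Fbln5 in Htt+/+ mice and Fbln2 and Tnr in HttQ111/+ mice fell. Postn, a matricellular protein of collagen-rich tissue, fell by 0.72 ± 0.10 and 0.53 ± 0.09, from 8.00 ± 1.3 to 5.19 ± 0.56 CPM in Htt+/+ mice. The median change over that list was -0.06 and -0.04.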

How the data were processed

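Striatal poly(A) RNA of 35 mice in 4 groups was sequenced by the authors from stranded libraries, 1 per mouse. The deposited values are raw counts per gene, made by the authors by counting aligned reads over whole-gene Ensembl intervals on GRCm38, introns included, after GSNAP alignment, with FastQC, SAMtools, bedtools and edgeR also named in the submitters' processing notes. Intronic reads raise long genes, and overlapping or antisense genes cannot be told apart, since use of strand in counting is not given in the sources used here. Library totals were 50970712 to 77867348.

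ERCC controls (92), genes of at most 250 bases (6152) and 2 mitochondrial rRNAs were left out. Genes reaching 6 counts in all libraries of a compared group were fitted over all 35 libraries with edgeR 4.0.16 (TMM scaling, quasi-likelihood F test) and 9 surrogate variables from sva 3.50.0 in R 4.3.3, with Benjamini-Hochberg adjustment over all genes tested and a threshold of 0.05. Standard errors were derived from the F statistic, and 95% intervals assume normal errors. The fit was run on simulated counts with the same spread for all genes and a hidden effect of sex. These held no effect of extraction date or tissue, so the run does not check calls that depend on them. Levels are CPM after TMM scaling. Associations with marker lists used log2(CPM + 0.5) and 100000 permutations, with SciPy 1.17.1. Gene strands and exonic lengths came from GENCODE annotation of GRCm38.

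The members, gene lists and tests were chosen with earlier results of these data known. Named genes were the Frem and Fras genes, every member past the threshold in any comparison, their trimer partners, the highest member per kb of each role, and up to 3 genes per direction of each pathway list. Lamb3, Col5a1, Col12a1, Col24a1, Col23a1, Lama1, Col3a1, Col8a1, Col8a2, Col6a5 and Col5a2 fall outside this rule and were chosen after their values had been seen. Alternatives covered covariates, scaling, DESeq2 1.42.0, count filters, males only, only the libraries compared, and a replicate block. Nothing states that mice of a group were from separate litters, so p-values reach no further than these mice. Those of the fit are set against the spread left after the surrogate variables. In the Hdac2 comparison of Htt+/+ mice edgeR's common coefficient of variation was 0.0686 with them and 0.129 without. A single member is counted but not reported by name here.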

Additional observations from a re-analysis of the deposited data

Results flagged for a closer look

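In 57 groups of 7 to 9 libraries over 19 named genes, 3 libraries stood far from the rest of their group by Dixon's test at the 95% level, where chance gives about 1 in 20 groups. HttQ111/+ Hdac2 WT replicate 7 was the highest of 7 for Col11a1, at 16.3 CPM against 7.96 CPM in the next library. The same library was the highest of its group for Frem1, at 2.23 CPM against 1.39 CPM. It also had the highest summed cortical markers, 474 CPM, and the part of these in the Col11a1 and Frem1 values was not tested. Htt+/+ Hdac2 KO replicate 4 was the highest of 9 for Lamb1, at 67.5 CPM against 54.1 CPM. No member passed the test of a difference in the Hdac2 effect between Htt backgrounds (edgeR, 6 with an unadjusted p under 0.05, DESeq2 0).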

How the results depend on the processing

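Across the alternatives of processing chosen at the outset the call of Col6a2 was kept in both Htt backgrounds and that of Nid1 in HttQ111/+ mice, and the other calls in these backgrounds, Frem3 aside, were each lost in at least 1. Frem3 was chosen for its rise, and its values ran from 3.42 to 3.85 and from 1.99 to 2.33. In the average Hdac2 effect the calls of Col6a2, Nid1, Col15a1 and Col26a1 were kept. The count of 11 in Htt+/+ mice became 5 with extraction date as the covariate instead of surrogate variables (4.8% of all genes), 5 with a replicate block (4.92%) and 17 with only the libraries compared (29.7%). The count of 11 in HttQ111/+ mice became 7 without surrogate variables (13.5%), 7 with sex (13.6%), 6 with extraction date (1.93%) and 7 in males only (9.81%). The count of 16 in the average became 6 with extraction date (4.62%), 5 of them among the 16. Most extraction dates held 1 Hdac2 genotype, so date and genotype can hardly be told apart there. For HttQ111 with intact Hdac2 the count of 0 became 3 with extraction date, 4 with the series of mouse ID numbers and 1 with DESeq2 (2.45%, 4.89% and 0.887% of all genes, against 0.403%), and in the average HttQ111 effect 1, 2 and 1 (2.32%, 3.63% and 2.34%, against 1.27%).

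Signs turned for Lamb1 with extraction date (-0.00069 in Htt+/+ mice and -0.0316 in the average), for Fras1 in Htt+/+ mice (-0.0349 without surrogate variables, -0.0316 with sex, -0.0283 with date, -0.00969 with only the libraries compared), for Lama3 with date (0.24 in HttQ111/+ mice and 0.28 in the average), for Col6a6 with date (-0.0526), for Col25a1 in the average (-0.00063 without surrogate variables, -0.0035 with sex, -0.10 with date) and for Frem1 in Htt+/+ mice (-0.0729 with the block, -0.0066 with at least 20 counts). The cause was not tested.

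Replicate numbers were not treated as pairs in the main fit. Of 45 pairs of same-numbered libraries 15 had deviations correlated over 0.1 (r from -0.27 to 0.41). Differently numbered libraries were not compared, so whether the numbers pair the samples was not tested. The replicate block left 5, 9 and 11 members past the threshold in Htt+/+ mice, HttQ111/+ mice and the average. Alternatives chosen after seeing the data left out HttQ111/+ Hdac2 WT replicate 7 (15, 12 and 15 members) or the 3 libraries high in cortical markers (8, 9 and 12). Depth limits the rarest members: Col4a3, Col4a4 and Col6a6, at most 0.660 CPM in any library, had standard errors of 0.30 to 0.38.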
